A study of Mus musculus with 12 samples.

Results

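The respiratory chain of the mouse was followed here through its nuclear-encoded genes in bone marrow-derived macrophages. Members were the protein-coding genes outside the mitochondrial chromosome whose symbols begin with Nduf, Sdha to Sdhd, Uqcr, Cox4 to Cox8 or Atp5. There were 96 of them among the 32246 genes measured, and among the 17694 protein-coding genes off the mitochondrial chromosome. By role they comprised 7 core and 30 accessory genes of complex I with 8 of its assembly factors, 4 subunits and 4 assembly factors of complex II, 8 subunits of complex III, 11 subunits of complex IV with 7 alternative or tissue-type isoforms, and 17 genes of complex V, the ATP synthase. The macrophages had been grown from marrow for 7 days in GM-CSF at 50 ng/mL, which all groups shared. For a further 24 h they were left untreated, were given PLG (plasminogen, the precursor of the protease plasmin) exposed to EACA (a lysine analogue that occupies the lysine-binding sites of plasminogen), or were given PLG exposed to EACA and to RNases. The groups are called untreated, PLG+EACA and PLG+EACA+RNase, and each had 4 libraries of total RNA. No group received EACA or RNase without PLG, or PLG without EACA, so a difference from untreated cells belongs to the whole preparation.

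The respiratory chain sits in the inner mitochondrial membrane. Complex I takes electrons from NADH and complex II takes them from succinate, complex III passes them to cytochrome c, complex IV hands them to oxygen, and the proton gradient built along the way drives ATP synthase. Most subunits are encoded in the nucleus and imported, and a small set is encoded by mitochondrial DNA, so each of complexes I, III, IV and V needs both genomes. Macrophages that respond to bacterial products are known to shift from respiration toward glycolysis and to use complexes I and II as sources of reactive oxygen and of succinate-dependent signals.

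Expression was read as FPKM, reads scaled by gene length and by the library's total, and 2 groups were compared by limma on log2(FPKM + 0.5) with Benjamini-Hochberg adjustment over all 11165 genes that reached an FPKM of 1 in at least 4 of the 12 libraries. A gene is said to have risen or fallen when its adjusted p was under 0.05. Of the members, 88 passed that filter, and 1 of them, Ndufaf4, passed it through the untreated libraries alone, so it had to differ and its test is not read as a result, though the counts include it. Nearly all of those had less RNA after either preparation: 74 of 88 fell with PLG+EACA and 0 rose by limma (0 also at an unadjusted p under 0.05), and 80 fell with PLG+EACA+RNase while 1 rose. The changes were small, and no tested member reached 2-fold on the log2(FPKM + 0.5) scale. In plain ratios of mean FPKM, Ndufaf4 was 2.34-fold lower with PLG+EACA and 2.43-fold lower with PLG+EACA+RNase, and Ndufaf7 was 2.23-fold lower with PLG+EACA. Much of the transcriptome fell too, since 53.4% of all genes tested fell and 14.9% rose with PLG+EACA, and 48.4% fell and 16.0% rose with PLG+EACA+RNase. The members' shares, 84.1% and 90.9% lower, were above those backgrounds. In bulk RNA, fewer cells of a type and less RNA per cell cannot be told apart.

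How many members passed the threshold, and their share against that of all genes, depended on the scaling between libraries. FPKM fixes the sum over all genes, whereas median-of-ratios scaling sets the typical gene level between libraries. That rescaling moved the median log2 change of all genes from -0.26 to -0.0004 with PLG+EACA and from -0.20 to -0.03 with PLG+EACA+RNase, and that of the members from -0.32 to -0.04 and from -0.34 to -0.16. The members' median was thus below that of all genes on both scales. A rescaling shifts all genes of a library alike, so the second scale is not separate support. Under the rescaling 10 members fell and 3 rose with PLG+EACA, against 25.2% and 27.8% of all genes, so the share of members that fell (11.4%) was below that of all genes. With PLG+EACA+RNase 36 members fell and 1 rose, against 30.2% and 25.0% of all genes, so the share that fell (40.9%) stayed above it. When the size factors were computed over the tested genes alone, 14 fell and 3 rose with PLG+EACA (26.4% and 27.3% of all genes), and 30 fell and 1 rose with PLG+EACA+RNase (26.4% and 28.4%). The 3 that rose with PLG+EACA under median-of-ratios scaling were Uqcrc2 (0.16, adjusted p = 0.0186), Cox7c (0.19, adjusted p = 0.0468) and Atp5md (0.20, adjusted p = 0.014), whose FPKM changes were -0.13, -0.10 and -0.08. The 10 that fell under both scalings were Ndufaf4, with the limit given above, Ndufaf7, Cox6a2, Sdhaf4, Atp5g1, Sdhd, Ndufs7, Ndufs3, Ndufb8 and Ndufs5.

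**Figure D1:**
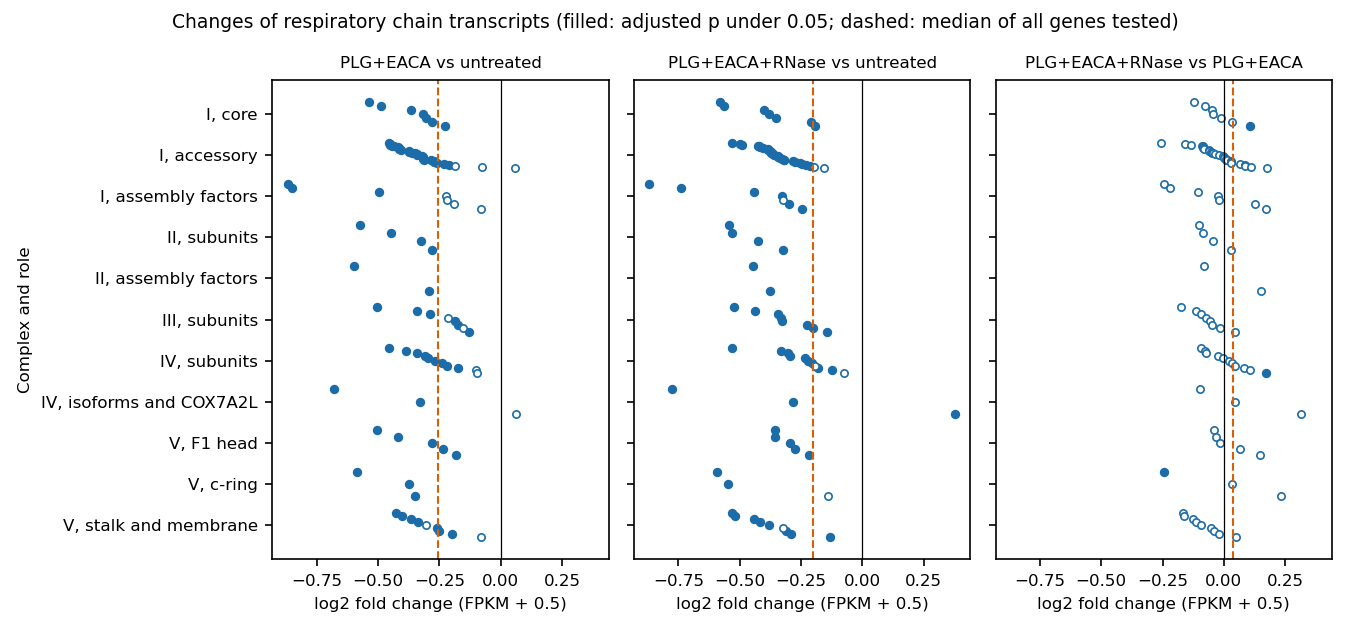
Log2 fold change of FPKM (horizontal axis) for each of the 88 tested members, arranged by role (vertical axis), in 3 panels for the 3 comparisons; filled points have an adjusted p under 0.05 and the dashed line is the median of all genes tested. In both comparisons with untreated cells nearly every point lies left of 0, around medians of -0.32 and -0.34, and in the comparison between the 2 preparations the points lie around -0.04.

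The plot of fold changes by role shows the members lying close together. The median log2 change of the members was -0.32 after PLG+EACA and -0.34 after PLG+EACA+RNase, and the middle 50% of members spanned 0.18 and 0.17. Among all genes tested the same spans were 0.50 and 0.52, and 794 and 735 genes changed by more than 2-fold on the same scale. A mean FPKM under 5 was found in 5350 of the 11165 genes and in 11 of the 88 members. Spans of genes at like level were not compared. In 69 of 88 members every PLG+EACA library was below every untreated library (50.9% of all genes), and in 76 of 88 every PLG+EACA+RNase library was (46.7% of all genes). The comparisons share the untreated libraries, so the 2 sets of falls are not independent.

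**Figure D2:**
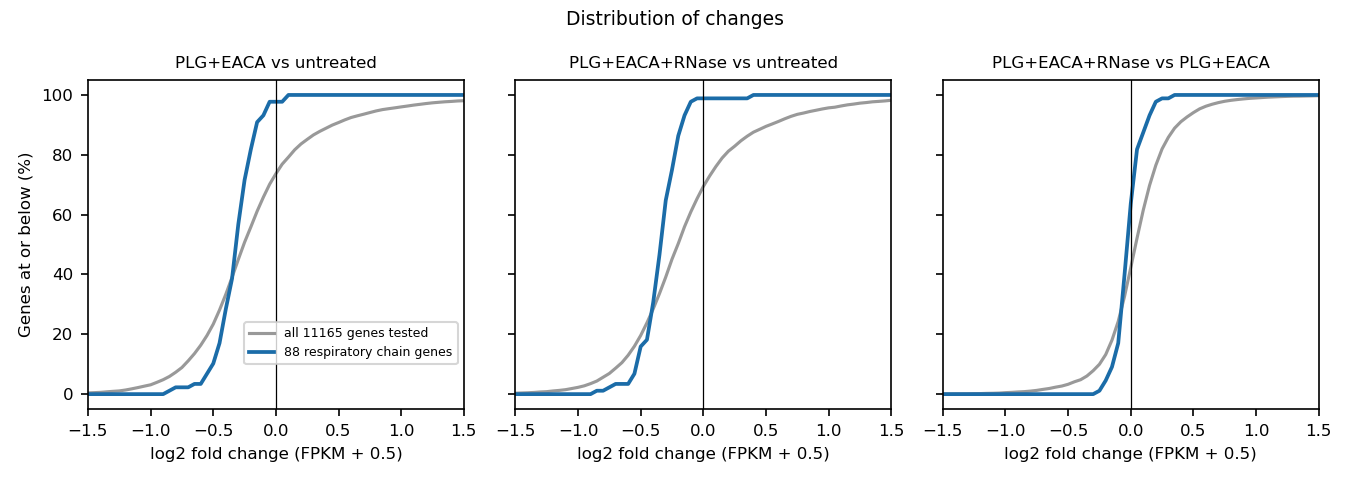
Cumulative percent of genes (vertical axis) against log2 fold change of FPKM (horizontal axis) for the 88 tested members and for all 11165 genes tested, in each comparison. The members' curve rises steeply near -0.3 in both comparisons with untreated cells, with an interquartile range of 0.18 and 0.17, while that of all genes is spread over 0.50 and 0.52.

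The cumulative plot shows the same narrow spread. The members' median change was also below that of all genes in each of 4 classes of length and 4 of level, by amounts that varied. With PLG+EACA it was closest at 2 to 4 kb (-0.32 against -0.30) and over 4 kb (-0.29 against -0.26), and it was -0.31 against -0.26 at a mean FPKM of 5 to 20. Among the 803 genes with a mean FPKM over 50, the median log2 change was -0.06 with either preparation, while the 12 members at that level had medians of -0.27 and -0.29. Among genes shorter than 1 kb, 1217 in all had medians of -0.15 and 0.01, and the 21 short members had -0.31 and -0.34. Both values of each pair are on the same FPKM scale, so their difference does not hang on the scaling. They are given as descriptions without a test.

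In untreated macrophages the chain was expressed over a wide range. The median of the 88 members' mean FPKM was 22.4, from 1.68 for Ndufaf4 to 254 for Atp5b, the catalytic beta subunit of ATP synthase. Complex IV subunits had the highest median level, 55.7, led by Cox8a at 248, and complex II followed at 46.6. The medians of complexes III, V and I were 39.6, 27.8 and 19.0. FPKM is a level per length, so these compare transcripts and not protein amounts. Summed over the complex I genes, FPKM was 819.7 ± 19.1 in the untreated libraries, 651 ± 11.9 after PLG+EACA and 644 ± 9.32 after PLG+EACA+RNase (mean ± SD, n = 4). The same sum was 205 ± 3.18 in the untreated libraries, 151 ± 3.14 after PLG+EACA and 147 ± 2.88 after PLG+EACA+RNase for complex II. It was 370.1 ± 8.74 in the untreated libraries, 305 ± 15 after PLG+EACA and 290.0 ± 13.1 after PLG+EACA+RNase for complex III. In each of these sums the groups of treated libraries lay below all untreated libraries, and the 2 treated groups overlapped. For complex IV the sum was 1037 ± 19.1 in the untreated libraries, 862 ± 45.2 after PLG+EACA and 885 ± 41.4 after PLG+EACA+RNase, and for complex V it was 827 ± 13.5 in the untreated libraries, 680.3 ± 21.1 after PLG+EACA and 673 ± 11.2 after PLG+EACA+RNase. There too all treated libraries were below all untreated ones. These sums are on FPKM as deposited, where the median log2 change of all genes was -0.26 and -0.20, and they were not rescaled. Under median-of-ratios scaling the subunits' median log2 changes with PLG+EACA were -0.05, -0.10, 0.08, 0.02 and -0.05 for complexes I to V. With PLG+EACA+RNase they were -0.18, -0.29, -0.14, -0.03 and -0.17.

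**Figure D3:**
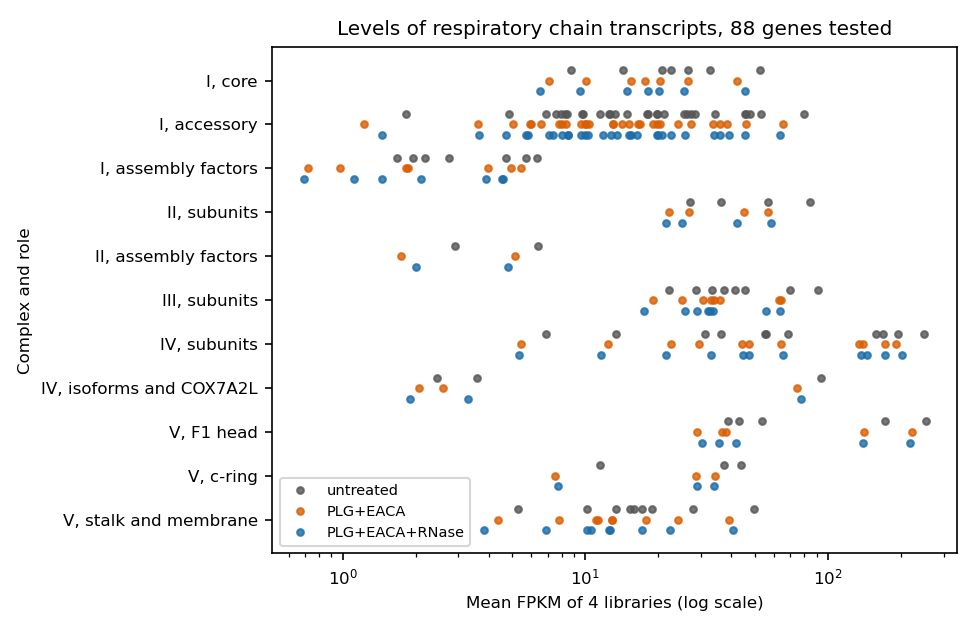
Mean FPKM (logarithmic horizontal axis) of each of the 88 tested members, arranged by role (vertical axis), in the 3 groups of 4 libraries. Levels run from 1.68 (Ndufaf4) to 254 (Atp5b) in untreated cells, assembly factors lie lowest, and the treated means lie slightly left of the untreated mean for nearly every gene.

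Sequencing depth, recovered from the steps between low FPKM values, was 12940883 to 22677012 counted reads per library, and all members together took 0.608% ± 0.0103 of them in the untreated group, 0.499% ± 0.0107 after PLG+EACA and 0.492% ± 0.00717 after PLG+EACA+RNase (SD, n = 4). A single non-coding gene, Gm26917, took 11%, 12.4% and 13.9%, and leaving it out of the total left 73 members lower in either comparison. The macrophage markers were all present (10 of 10 reached an FPKM of 1, up to 5261), with sums of 7631 to 8310 in the untreated group, 6072 to 8106 after PLG+EACA and 6116 to 6698 after PLG+EACA+RNase. Single markers moved both ways: Csf1r fell (-0.80 with either preparation) and Cd14 rose with PLG+EACA (0.68). Of the other markers fixed for the check, 6 of 10 for dendritic cells, 6 of 10 for neutrophils, 4 of 9 for stroma and endothelium and 0 of 9 for lymphocytes reached an FPKM of 1 in some library, and none was at 0 in all. The dendritic cell markers Batf3, Kit and Clec9a fell (-1.31, -0.98 and -1.02 with PLG+EACA) and Zbtb46 rose (0.37). Dendritic cell markers summed to 129 ± 15.5 in the untreated libraries, 125 ± 29.2 after PLG+EACA and 149 ± 14.6 after PLG+EACA+RNase, and neutrophil markers to 31.8 ± 21.5 in the untreated libraries, 42.8 ± 20.6 after PLG+EACA and 43.7 ± 14.9 after PLG+EACA+RNase. Stromal and endothelial markers summed to 14.6 ± 4.25 in the untreated libraries, 17.8 ± 7.15 after PLG+EACA and 14 ± 3.96 after PLG+EACA+RNase, and no lymphocyte marker exceeded an FPKM of 0.559 in any library. Of the 4 stromal and endothelial markers tested, Pdgfrb rose with both preparations (1.26, adjusted p = 2.24e-06, and 1.08, adjusted p = 8.15e-06). Kdr rose with PLG+EACA (1.02, adjusted p = 4.50e-04). In each comparison with untreated cells 2 of these 4 markers had negative changes, down to -0.84 and -0.81, and 0 fell by limma (0 also at an unadjusted p under 0.05). The median changes of the 4 were 0.29 and -0.08. Of the 5 neutrophil markers tested, Ltf rose with PLG+EACA+RNase (1.18, adjusted p = 0.0133). The part of such cells in the falls was not tested. Separate animals or cultures are not named in the labels for the 4 replicates, so p-values measure only the spread between these libraries, which may be technical.

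Respiratory chain promoters are known for sites of NRF1, of the ETS factor GABP, of YY1, of ERR alpha and of SP1. RefSeq promoter windows (GRCm38.p6, 250 bases before and 50 after the start) were matched for 79 of the 96 members, giving 84 windows, and searched on both strands. The NRF1 letters, GCGCA and GCGC with any 1 base between them, were in 26.2% of the members' windows and in 4.6% of all 32851 windows. The ETS letters CCGGAAG were in 26.2% against 8.86%, the YY1 letters AANATGGC in 23.8% against 6.05%, the ERR alpha letters AAGGTCA in 9.52% against 4.72%, and the SP1 letters GGGGCGGG in 26.2% against 16.5%. These 4 promoters are shown because each holds 1 or 2 of the patterns in a gene that was lower with both preparations (Ndufaf1 passed with PLG+EACA+RNase only, and Ndufaf4 has the limit given above). The 250 bases before the start are printed 5′ to 3′ on the gene's strand, with the matching letters in capitals.
Ndufaf4 (chr4:24897833-24898082, plus strand): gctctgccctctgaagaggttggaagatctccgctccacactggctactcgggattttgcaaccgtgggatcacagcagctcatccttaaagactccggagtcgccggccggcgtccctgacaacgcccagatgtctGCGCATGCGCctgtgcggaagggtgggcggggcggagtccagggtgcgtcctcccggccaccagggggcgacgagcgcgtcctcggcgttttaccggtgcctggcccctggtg
Ndufaf1 (chr2:119662835-119663084, minus strand): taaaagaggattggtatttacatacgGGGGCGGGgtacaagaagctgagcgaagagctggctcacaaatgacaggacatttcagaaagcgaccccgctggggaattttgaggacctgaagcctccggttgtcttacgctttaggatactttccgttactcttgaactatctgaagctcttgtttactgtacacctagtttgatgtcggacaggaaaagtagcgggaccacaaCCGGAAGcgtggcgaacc
Ndufs8 (chr19:3912775-3913024, minus strand): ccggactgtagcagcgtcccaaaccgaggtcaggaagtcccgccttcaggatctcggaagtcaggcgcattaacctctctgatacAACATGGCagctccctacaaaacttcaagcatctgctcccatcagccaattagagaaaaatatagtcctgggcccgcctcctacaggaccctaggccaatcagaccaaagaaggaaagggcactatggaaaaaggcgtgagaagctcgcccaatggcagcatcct
Atp5g3 (chr2:73911327-73911576, minus strand): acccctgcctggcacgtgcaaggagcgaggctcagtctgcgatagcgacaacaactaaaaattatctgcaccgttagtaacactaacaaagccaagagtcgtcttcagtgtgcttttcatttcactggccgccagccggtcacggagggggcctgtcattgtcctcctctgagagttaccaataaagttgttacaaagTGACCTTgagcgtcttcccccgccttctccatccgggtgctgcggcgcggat
In Ndufaf4, an assembly factor of complex I, the capitals mark the NRF1 letters 113 to 104 bases before the start. In Ndufaf1, also an assembly factor, they mark the SP1 letters 224 to 217 bases and the ETS letters 18 to 12 bases before it. In Ndufs8, a core iron-sulphur subunit, they mark the YY1 letters 165 to 158 bases before it, and in Atp5g3, a c-ring gene of ATP synthase, the ERR alpha letters on the opposite strand 52 to 46 bases before it. These 5 patterns do not overlap one another in the windows shown. A match is a description of the letters and does not show binding.

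All 7 nuclear core subunits of complex I fell with both preparations, against 53.4% and 48.4% of all genes. These carry the flavin and iron-sulphur centres that move electrons from NADH to ubiquinone. Under median-of-ratios scaling, where 25.2% and 30.2% of all genes fell, 2 of the 7 fell after PLG+EACA (median change -0.03). For PLG+EACA+RNase the count on that scale was 5 (median change -0.20). Ndufs3 (chr2:90894634-90904827, minus strand), a core subunit of the arm that reaches into the matrix, had an FPKM of 14.6, 13.7, 14.7 and 14.2 in the untreated libraries, 10.2, 11, 9.59 and 9.57 after PLG+EACA and 9.41, 9.61, 9.4 and 9.62 after PLG+EACA+RNase. Every treated library was below every untreated one, and the 2 treated groups overlapped. The log2 change was -0.49 ± 0.05 (SE) with PLG+EACA (adjusted p = 4.43e-06) and -0.57 ± 0.05 with PLG+EACA+RNase (adjusted p = 1.76e-06), and it stayed past the threshold under median-of-ratios scaling (-0.21 and -0.38). Ndufs7 (chr10:80249121-80256794, plus strand), which holds the last iron-sulphur centre before ubiquinone, had 21.1, 22.7, 23.9 and 22.7 in the untreated libraries, 14, 16.3, 14.6 and 16.8 after PLG+EACA and 14.3, 15.1, 14.6 and 15.8 after PLG+EACA+RNase. Again no treated library reached the untreated range, and the changes were -0.54 with PLG+EACA (adjusted p = 1.41e-05) and -0.58 with PLG+EACA+RNase (adjusted p = 8.66e-06). Ndufs1, Ndufv1 and Ndufv2, which form the NADH-oxidising tip, went from 8.73, 32.8 and 26.5 to 7.1, 26.5 and 20.4 with PLG+EACA. Ndufs8 fell least of the core subunits with PLG+EACA (-0.23, adjusted p = 0.0122). Ndufs3 overlaps Kbtbd4 and has 1 near-identical copy in the annotation, so its count is less certain than that of Ndufs7.

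Of the 29 accessory genes of complex I that were tested, 26 fell after PLG+EACA and 27 after PLG+EACA+RNase. The shares of all genes that fell were 53.4% and 48.4%. Under median-of-ratios scaling, where those shares were 25.2% and 30.2%, 2 of the 29 fell after PLG+EACA (median change -0.06). For PLG+EACA+RNase the rescaled count was 13 (median change -0.18). The accessory subunits surround the core and are needed for its assembly and stability. The smallest p-values belonged to Ndufs5 and Ndufa5. Ndufs5 had an FPKM of 27.9, 25.1, 25.5 and 26.6 in the untreated libraries, 19.6, 18, 19.9 and 18.8 after PLG+EACA and 20.4, 20.5, 19.4 and 19.6 after PLG+EACA+RNase. All 8 treated libraries were below the untreated ones, by -0.45 and -0.38 on the log2 scale (adjusted p = 5.95e-06 and 2.13e-05). Ndufa5 had 7.94, 7.61, 8.14 and 8.19 in the untreated libraries, 6.21, 5.77, 5.42 and 6.2 after PLG+EACA and 5.99, 5.92, 5.62 and 5.68 after PLG+EACA+RNase, with changes of -0.41 and -0.43. The supernumerary genes Ndufb4, Ndufb10, Ndufa8 and Ndufa11 had changes of -0.41, -0.46, -0.44 and -0.45 with PLG+EACA, all past the threshold. The exceptions with PLG+EACA were Ndufs4 (-0.07, adjusted p = 0.367), Ndufb3 (-0.19, adjusted p = 0.0579) and Ndufb1-ps (0.06, adjusted p = 0.681). Ndufs4, whose loss in mice gives a well-known model of complex I deficiency, had an FPKM of 8.17, 7.67, 8.73 and 8.38 in the untreated libraries, 7.55, 6.81, 8.23 and 8.69 after PLG+EACA and 7.39, 7.88, 7.05 and 7.07 after PLG+EACA+RNase. Its groups overlapped in both comparisons. Ndufb1-ps lies over Cpsf2, which is also expressed, and reads of the 2 may be mixed. Ndufab1, the mitochondrial acyl carrier protein, fell with PLG+EACA (-0.42) and, close to the threshold, with PLG+EACA+RNase (-0.24, adjusted p = 0.0498).

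Complex I assembly factors were low in level, with untreated means of 1.68 to 6.34 for the 7 tested. Ndufaf7 (chr17:78937136-78948052, plus strand), a methyltransferase that acts during assembly, had an FPKM of 2.15, 2.14, 2.2 and 2.23 in the untreated libraries, 1.16, 1.12, 0.815 and 0.831 after PLG+EACA and 1.27, 1.07, 1.17 and 0.934 after PLG+EACA+RNase. The treated libraries lay between 0.815 and 1.27 and did not overlap the untreated ones. The log2 change was -0.87 ± 0.10 with PLG+EACA (adjusted p = 1.44e-05) and -0.74 ± 0.10 with PLG+EACA+RNase (adjusted p = 5.31e-05). Ndufaf4 (chr4:24898083-24905001, plus strand) had 1.75, 1.42, 1.84 and 1.71 in the untreated libraries, 0.893, 0.531, 0.861 and 0.585 after PLG+EACA and 0.704, 0.638, 0.693 and 0.73 after PLG+EACA+RNase, on 35 to 148 reads. All treated libraries were below the untreated ones, which is given as a description, since it passed the filter through the untreated libraries alone. Ndufaf6 also fell with PLG+EACA (-0.50, adjusted p = 0.00776), while Ndufaf1, Ndufaf3, Ndufaf5 and Ndufaf8 were between -0.22 and -0.08 without passing. With Ndufaf4 counted, 3 of the 7 tested fell with PLG+EACA, 42.9% against 53.4% of all genes, and 6 of 7 with PLG+EACA+RNase, 85.7% against 48.4%. Under median-of-ratios scaling 2 fell in each comparison.

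All 4 subunits of complex II, succinate dehydrogenase, fell with both preparations, against 53.4% and 48.4% of all genes. It is the only complex with every subunit encoded in the nucleus, and it is also an enzyme of the TCA cycle. Under median-of-ratios scaling, where 25.2% and 30.2% of all genes fell, 1 of the 4 subunits, Sdhd, fell after PLG+EACA. For PLG+EACA+RNase the count on that scale was 3. Sdhd (chr9:50596357-50603812, minus strand), a membrane anchor that binds ubiquinone, had an FPKM of 85.3, 81.6, 86.1 and 86.4 in the untreated libraries, 55.5, 57.3, 60.4 and 54.6 after PLG+EACA and 57.8, 57.6, 62 and 55.1 after PLG+EACA+RNase. The lowest untreated library was at 81.6 and the highest treated one at 62, and the 2 treated groups overlapped. Its change was -0.57 ± 0.05 with PLG+EACA (adjusted p = 1.04e-06) and -0.54 ± 0.05 with PLG+EACA+RNase (adjusted p = 1.74e-06), and -0.28 and -0.36 under median-of-ratios scaling (adjusted p = 2.93e-04 and 5.52e-05). Sdhb (chr4:140961203-140979193, plus strand), the iron-sulphur subunit, had 37, 36.1, 36.2 and 36.5 in the untreated libraries, 24.9, 26.2, 26.2 and 29.3 after PLG+EACA and 25.1, 23.5, 26.9 and 24.8 after PLG+EACA+RNase. The highest treated library, at 29.3, was below all untreated ones, and the changes were -0.45 with PLG+EACA (adjusted p = 1.92e-05) and -0.53 with PLG+EACA+RNase (adjusted p = 5.81e-06). The catalytic flavoprotein Sdha (chr13:74322254-74350280, minus strand) had 56.4, 56.5, 56 and 57.9 in the untreated libraries, 44.5, 46.9, 43.8 and 45.5 after PLG+EACA and 41.2, 43.6, 40.5 and 43 after PLG+EACA+RNase. Here the untreated libraries were highest, those with PLG+EACA intermediate and those with PLG+EACA+RNase lowest, without overlap. The difference between the 2 preparations did not pass the test (-0.10 ± 0.04, adjusted p = 0.0771). Sdhc (chr1:171127165-171150603, minus strand), the other membrane anchor, had 26.6, 26.4, 27.5 and 27.3 in the untreated libraries, 21.6, 23.5, 20.7 and 22.8 after PLG+EACA and 20.1, 21.4, 21.5 and 23 after PLG+EACA+RNase. Its changes were -0.28 and -0.32, the smallest of the 4 subunits. Of the assembly factors, Sdhaf2, which helps attach the flavin to Sdha, and Sdhaf4 fell with both preparations, by log2 changes of -0.29 and -0.60 with PLG+EACA. Sdhaf1 and Sdhaf3 were under the filter.

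**Figure D4:**
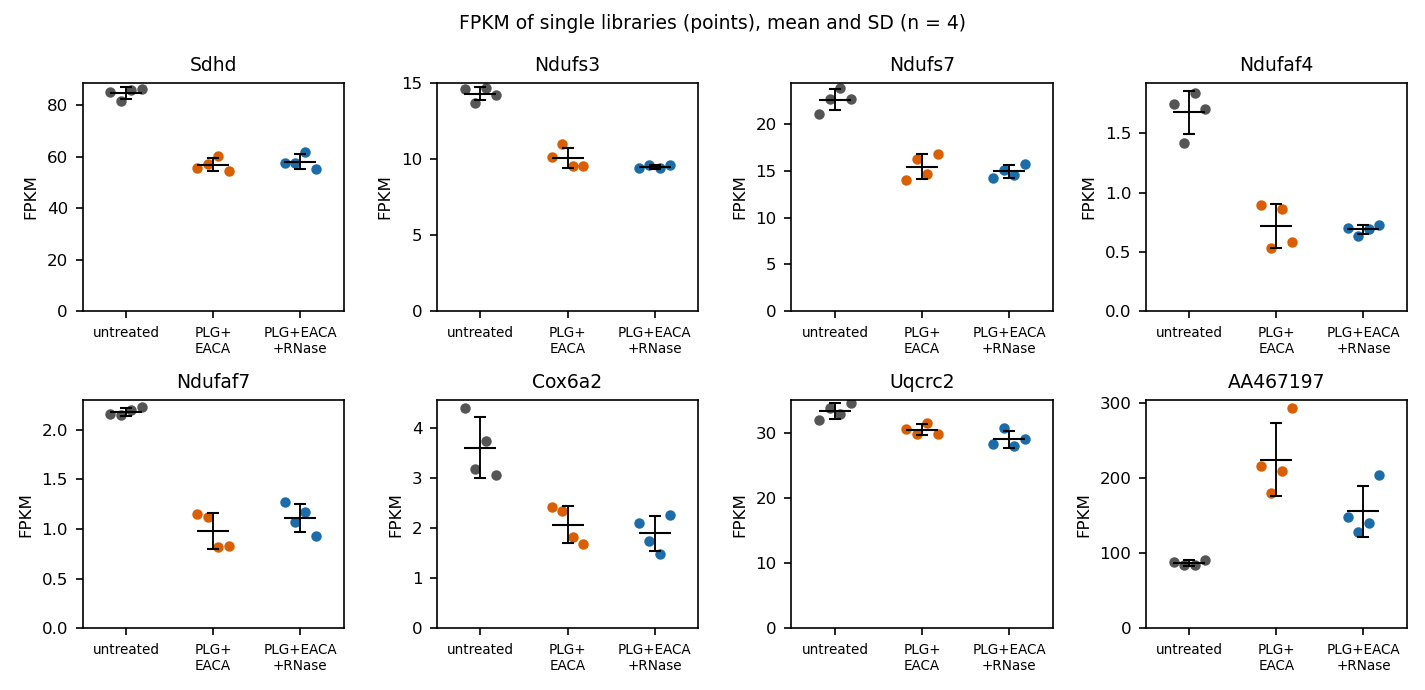
FPKM (vertical axis, from 0) in each of the 12 libraries (points) with the group mean and SD (bar and whisker) for Sdhd, Ndufs3, Ndufs7, Ndufaf4, Ndufaf7, Cox6a2, Uqcrc2 and AA467197, in the 3 groups. Treated libraries lie below all untreated ones in each gene but AA467197, where they lie above, and the distance is least for Uqcrc2.

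Of the 8 complex III subunits 6 fell with PLG+EACA and all 8 with PLG+EACA+RNase, against 53.4% and 48.4% of all genes. Their median log2 change was -0.20 with PLG+EACA, a smaller fall than the -0.26 of all genes. With PLG+EACA+RNase it was -0.33 against -0.20. Under median-of-ratios scaling 0 fell and 1 rose with PLG+EACA by limma, and 2 fell with PLG+EACA+RNase. Uqcr10, a small accessory subunit, had an FPKM of 86.4, 88.6, 102 and 88.8 in the untreated libraries, 63.3, 56.3, 65.1 and 73 after PLG+EACA and 62.4, 58.8, 68.7 and 64.1 after PLG+EACA+RNase. No treated library reached the untreated range, giving changes of -0.51 with PLG+EACA (adjusted p = 1.44e-04) and -0.52 with PLG+EACA+RNase (adjusted p = 1.24e-04). Uqcrc1, a core protein, went from 41.6 ± 0.369 to 34 ± 0.927 and 32.8 ± 2.13 (mean ± SD), a change of -0.29 and -0.34. Uqcrc2, the other core protein, had 31.9, 33.9, 32.9 and 34.6 in the untreated libraries, 30.7, 29.9, 31.6 and 29.7 after PLG+EACA and 28.2, 30.8, 27.9 and 29 after PLG+EACA+RNase. Its groups did not overlap with untreated cells, and the changes were -0.13 (adjusted p = 0.0202) and -0.20 (adjusted p = 0.00163), smaller than the median change of all genes with PLG+EACA. Uqcrfs1, the Rieske iron-sulphur protein, had 67.9, 69.2, 69.8 and 71.7 in the untreated libraries, 59.7, 62.9, 59 and 69.1 after PLG+EACA and 58.6, 50.6, 52.3 and 60.6 after PLG+EACA+RNase. It was at -0.15 with PLG+EACA (adjusted p = 0.0531) and fell with PLG+EACA+RNase (-0.33, adjusted p = 8.75e-04).

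In complex IV, cytochrome c oxidase, 9 of 11 subunits fell with either preparation, against 53.4% and 48.4% of all genes. Their median log2 changes, -0.27 and -0.22, were near those of all genes, -0.26 and -0.20. Under median-of-ratios scaling 0 fell and 1 rose with PLG+EACA by limma, and 1 fell with PLG+EACA+RNase. Cox5b, which binds zinc on the matrix side, had an FPKM of 32.8, 29.4, 33.1 and 29.5 in the untreated libraries, 24.5, 21.8, 20.9 and 23.4 after PLG+EACA and 23.9, 18.5, 19.8 and 24 after PLG+EACA+RNase. All treated libraries were below all untreated ones, with changes of -0.46 with PLG+EACA (adjusted p = 5.83e-04) and -0.53 with PLG+EACA+RNase (adjusted p = 2.12e-04). Cox8a, the most abundant nuclear transcript of the complex, had 253, 250.2, 249 and 241 in the untreated libraries, 176, 184, 192 and 209 after PLG+EACA and 224, 170.0, 226 and 190.2 after PLG+EACA+RNase. Treated libraries varied more among themselves, from 170.0 to 226, and all lay below the untreated range. Cox4i1, Cox6a1 and Cox6b1 fell by smaller amounts (-0.18, -0.27 and -0.24 with PLG+EACA). The exceptions in both comparisons were Cox7c (-0.10 and -0.07) and Ndufa4 (-0.10 and -0.19), a subunit first assigned to complex I and now placed in complex IV. Ndufa4 had 13.9, 14.5, 14.2 and 11.2 in the untreated libraries, 12.4, 12, 12.9 and 12.4 after PLG+EACA and 10.4, 11.5, 13 and 11.7 after PLG+EACA+RNase. Its groups overlapped in every comparison.

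The isoforms of complex IV, several of which are known from heart and skeletal muscle, were low except for Cox7a2l. Cox7a2l, which joins complexes III and IV into supercomplexes, had a mean of 93.8 in untreated cells and fell with both preparations, by log2 changes of -0.33 with PLG+EACA (adjusted p = 0.00126) and -0.28 with PLG+EACA+RNase (adjusted p = 0.00372). Cox6a2 (chr7:128205435-128206387, minus strand), the muscle form of Cox6a1, had an FPKM of 4.4, 3.18, 3.74 and 3.06 in the untreated libraries, 2.41, 2.33, 1.81 and 1.68 after PLG+EACA and 2.09, 1.74, 1.48 and 2.25 after PLG+EACA+RNase. No treated library reached the lowest untreated one, and the changes were -0.68 ± 0.14 (adjusted p = 9.09e-04) and -0.78 ± 0.14 (adjusted p = 3.78e-04). Cox7a1 (chr7:30184144-30186078, plus strand), the muscle form of Cox7a2, went the other way and was the 1 of the 88 tested members that rose against untreated cells on FPKM as deposited. It had 3.27, 2.4, 2.28 and 1.89 in the untreated libraries, 2.49, 3.3, 1.99 and 2.56 after PLG+EACA and 3.39, 3.33, 3.03 and 3.45 after PLG+EACA+RNase. Its untreated replicate 1 lay within the PLG+EACA+RNase range. The change with PLG+EACA+RNase was 0.38 ± 0.14 (adjusted p = 0.0325), and with PLG+EACA 0.06 ± 0.14 (adjusted p = 0.712). The rise was lost when untreated replicate 2, 3 or 4 or PLG+EACA+RNase replicate 1, 2 or 4 was left out, with adjusted p up to 0.10, and in the fit with no filter (adjusted p = 0.077).

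Cox4i2 (chr2:152754173-152765037, plus strand), the oxygen-responsive isoform of Cox4i1 known from lung, was under the filter but is given by value. Its FPKM was 0.058, 0.172, 0.124 and 0.151 in the untreated libraries, 0.586, 0.448, 0.71 and 0.072 after PLG+EACA and 0.685, 1.96, 1.27 and 1.27 after PLG+EACA+RNase. All PLG+EACA+RNase libraries lay above all untreated ones, and PLG+EACA libraries lay between and overlapped both. These values rest on 1, 2, 2 and 2 reads in the untreated libraries, 9, 8, 10 and 1 after PLG+EACA and 11, 26, 13 and 19 after PLG+EACA+RNase. In the fit with no filter, the change with PLG+EACA+RNase was 1.48 on the log2(FPKM + 0.5) scale (adjusted p = 0.00103), and with PLG+EACA it was 0.56 (adjusted p = 0.159). The other members under the filter were Ndufb2, Cox6b2, Cox8b, Ndufa4l2, Ndufaf2, Sdhaf1 and Sdhaf3, with untreated means of 0.453, 0.517, 0.506, 0.278, 0.926, 0.542 and 0.235. Sdhaf1, an assembly factor of complex II, had 0.517, 0.734, 0.608 and 0.311 in the untreated libraries, 0.124, 0.177, 0.292 and 0.252 after PLG+EACA and 0.138, 0.143, 0.155 and 0.191 after PLG+EACA+RNase. Its treated libraries were all below its untreated ones, on 5 to 31 reads. A limit of these 8 genes is counting error, and no change in them was tested with the filter in place.

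On FPKM as deposited, genes of both the catalytic head and the membrane part of ATP synthase fell. All 5 genes of the F1 head fell with both preparations, against 53.4% and 48.4% of all genes. Under median-of-ratios scaling 0 of the 5 passed by limma in either comparison, with median changes of 0.01 and -0.11. Atp5b had an FPKM of 248, 249.7, 257 and 259 in the untreated libraries, 225, 223, 223 and 221 after PLG+EACA and 219, 219.7, 217 and 217 after PLG+EACA+RNase. These 12 libraries are tightly grouped, with no treated library above 225 and no untreated one below 248, and the changes were -0.18 with PLG+EACA (adjusted p = 2.52e-04) and -0.22 with PLG+EACA+RNase (adjusted p = 7.80e-05). Atp5a1, the alpha subunit, had 170.2, 170.0, 173 and 172 in the untreated libraries, 136, 140.2, 139.9 and 149 after PLG+EACA and 144, 136, 139 and 139 after PLG+EACA+RNase, with changes of -0.28 and -0.29. Atp5d and Atp5c1, of the central stalk, fell further (-0.50 and -0.42 with PLG+EACA). Under median-of-ratios scaling Atp5a1 and Atp5b were at 0.01 and 0.11 with PLG+EACA, so neither was lower relative to the typical gene. Of the 9 genes of the peripheral stalk and membrane part, 7 fell after PLG+EACA and 8 after PLG+EACA+RNase. Under median-of-ratios scaling 0 fell and 1 rose with PLG+EACA by limma, and 5 fell with PLG+EACA+RNase. Atp5j and Atp5o, of the peripheral stalk, were at -0.52 and -0.53 with PLG+EACA+RNase. Atp5md, a small membrane protein of the complex, was at -0.08 with PLG+EACA (adjusted p = 0.186).

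The 3 genes of the c-ring, the proton-driven rotor, encode the same mature protein behind different import signals. Atp5g1 (chr11:96068852-96075670, minus strand) had an FPKM of 11.1, 11.4, 12.4 and 11.2 in the untreated libraries, 7.07, 7.16, 7.28 and 8.66 after PLG+EACA and 7.83, 6.97, 7.87 and 8.25 after PLG+EACA+RNase. Treated libraries were all lower, and the changes were -0.58 with PLG+EACA (adjusted p = 1.92e-05) and -0.55 with PLG+EACA+RNase (adjusted p = 3.39e-05). Atp5g2 (chr15:102662864-102672352, minus strand) had 37, 40.7, 37.1 and 34.8 in the untreated libraries, 27.4, 28.5, 30.5 and 28.5 after PLG+EACA and 38.2, 32.9, 36 and 29.1 after PLG+EACA+RNase. It fell with PLG+EACA (-0.37, adjusted p = 0.00107), while its PLG+EACA+RNase libraries overlapped the untreated ones (-0.14, adjusted p = 0.137). Atp5g3 (chr2:73908447-73911326, minus strand) had 42.2, 44.5, 44.4 and 43.6 in the untreated libraries, 32.1, 33.2, 33.3 and 38.4 after PLG+EACA and 29.2, 28.3, 28.5 and 29.1 after PLG+EACA+RNase. All 3 groups were apart, with untreated cells highest and PLG+EACA+RNase lowest. Its changes were -0.35 with PLG+EACA (adjusted p = 9.80e-05) and -0.59 with PLG+EACA+RNase (adjusted p = 2.24e-06). Atp5g1 and Atp5g2 have near-identical copies in the annotation and Atp5g3 has none. The summed c-ring FPKM was 92.6 ± 3.26 in the untreated libraries, 70.5 ± 3.88 after PLG+EACA and 70.6 ± 4.0 after PLG+EACA+RNase, while the part from Atp5g3 was 47.2 ± 1.1%, 48.5 ± 1.69% and 40.9 ± 2.24%, and that from Atp5g2 was 40.4 ± 1.46%, 40.8 ± 2.21% and 48.1 ± 3.05%. The choice of these shares came after seeing the values, and they have no test.

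Between the 2 preparations, which differ by the RNase exposure of the PLG, few members changed. With PLG+EACA+RNase 2 of 88, Cox5a among them, were higher and 1, Atp5g3, was lower, against 12.1% and 8.73% of all genes tested. The median log2 difference of members was -0.04 and that of all genes 0.04. Under median-of-ratios scaling 0 members were higher (0 also at an unadjusted limma p under 0.05) and 13 were lower, against 7.77% and 17.3% of all genes. Groups did not overlap in 2 members that were higher and 3 that were lower (10.4% and 7.68% of all genes). When only these 2 groups entered the fit, none of the 3 passed, and at an unadjusted p under 0.05 there were 4 higher and 2 lower members.

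Cox5a (chr9:57521274-57532426, plus strand), a nuclear subunit on the matrix face of complex IV, had an FPKM of 35.1, 36.9, 37.1 and 35.6 in the untreated libraries, 29.5, 28.2, 30.4 and 29.2 after PLG+EACA and 32.2, 32.9, 34.4 and 33.1 after PLG+EACA+RNase. The 3 groups did not overlap, and the PLG+EACA+RNase libraries lay between those of the other groups. The difference was 0.17 ± 0.04 (adjusted p = 0.0134), and 0.07 (adjusted p = 0.288) under median-of-ratios scaling. The difference of Atp5g3 was -0.24 ± 0.05 (adjusted p = 0.0115), and -0.34 under median-of-ratios scaling (adjusted p = 0.0122). The calls of Cox5a and Atp5g3 passed in all 12 fits that left out 1 library. Atp5g2 stood at 0.23 ± 0.08 (adjusted p = 0.0506), opposite in sign to Atp5g3 and not past the threshold.

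**Figure D5:**
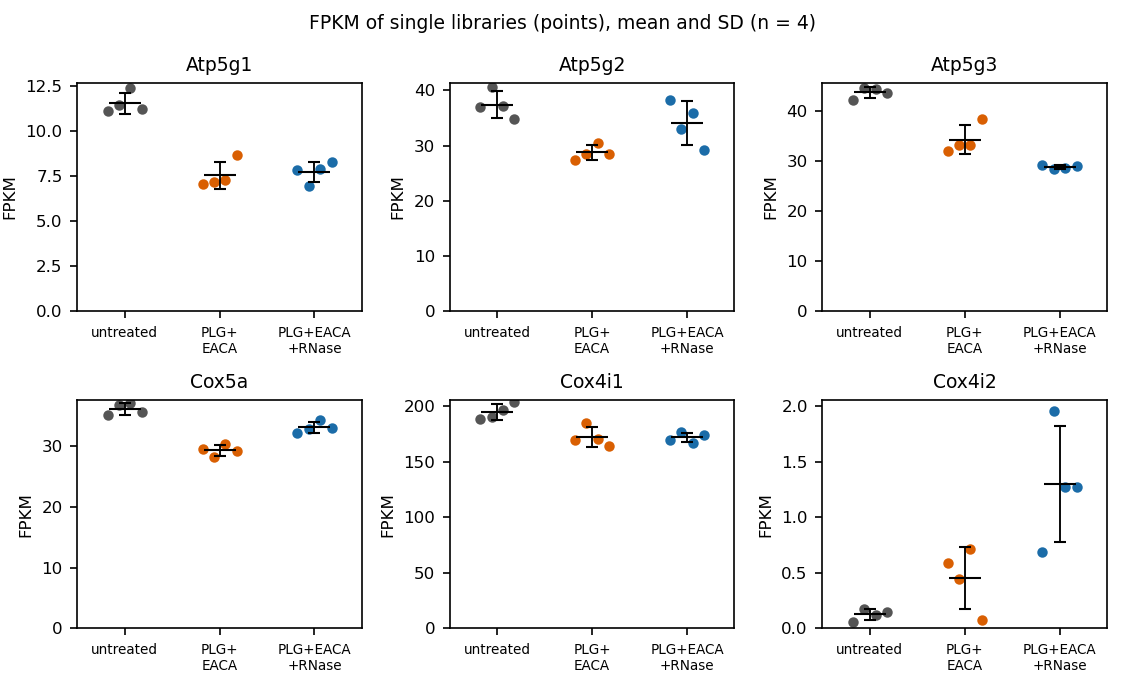
FPKM (vertical axis, from 0) in each of the 12 libraries (points) with the group mean and SD for Atp5g1, Atp5g2, Atp5g3, Cox5a, Cox4i1 and Cox4i2. PLG+EACA+RNase libraries lie below those of PLG+EACA in Atp5g3, above them in Cox5a, and overlap them in Atp5g1 and Cox4i1.

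Partners of the chain outside the naming rule moved both ways. Of the 4 tested, 2 rose and 2 fell with PLG+EACA, and 1 rose and 1 fell with PLG+EACA+RNase. Under median-of-ratios scaling 2 rose with PLG+EACA and 1 rose and 1 fell with PLG+EACA+RNase. Cyc1, the cytochrome c1 of complex III, had changes of -0.38 with PLG+EACA (adjusted p = 7.36e-05) and -0.44 with PLG+EACA+RNase (adjusted p = 2.58e-05). Cycs, cytochrome c itself, rose with PLG+EACA (0.28, adjusted p = 0.00592) from 9.08 ± 0.121 to 11.2 ± 1.5. AA467197, the mouse form of NMES1, a paralog of Ndufa4 that can take its place in complex IV in inflamed cells, had an FPKM of 88.5, 83.9, 83.8 and 91.6 in the untreated libraries, 216, 181, 209 and 293 after PLG+EACA and 149, 128, 141 and 205 after PLG+EACA+RNase. All treated libraries were above all untreated ones, and those with PLG+EACA+RNase overlapped those with PLG+EACA. The changes were 1.34 ± 0.15 (adjusted p = 1.10e-05) and 0.81 ± 0.15 (adjusted p = 5.21e-04). Between the preparations it was -0.53 ± 0.15 (adjusted p = 0.0306), a call lost when PLG+EACA replicate 1 or 4 or PLG+EACA+RNase replicate 1, 2 or 3 was left out (adjusted p up to 0.0896), and with no filter or with only these 2 groups fitted (up to 0.0887). The FPKM ratio of AA467197 to Ndufa4 was 6.57 ± 1.1 in the untreated libraries, 18.1 ± 3.88 after PLG+EACA and 13.4 ± 3.11 after PLG+EACA+RNase, and the treated libraries were all above the untreated ones.

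Assembly factors that the naming rule does not catch were taken from lists, to be read against the 53.4% and 48.4% of all genes that fell. For complex I, 7 of 10 tested fell after PLG+EACA and 8 after PLG+EACA+RNase, and 0 rose with limma (0 also at an unadjusted p under 0.05). Tmem126b, of the complex that builds the membrane arm, went from 3.57 to 1.5 and 1.65 FPKM, with changes of -1.04 with PLG+EACA (adjusted p = 3.64e-06) and -0.93 with PLG+EACA+RNase (adjusted p = 9.24e-06). Its partner Ecsit, also known in innate immune signalling, went from 3.02 to 1.47 and 1.56. For complex III, 5 of 5 fell after PLG+EACA and 4 after PLG+EACA+RNase, among them Uqcc2 (-0.42 and -0.40). Bcs1l, which inserts the Rieske protein, fell with PLG+EACA (-0.61) and was 0.41 higher with PLG+EACA+RNase than with PLG+EACA (adjusted p = 0.0247), a call lost without PLG+EACA replicate 4 or PLG+EACA+RNase replicate 2 or 3 (adjusted p up to 0.0762) and with only these 2 groups fitted (0.0804). For complex IV the 20 tested split: 14 fell and 2 rose with PLG+EACA, and 13 fell and 0 rose with PLG+EACA+RNase (limma, 0 also at an unadjusted p under 0.05). Higd2a, Surf1 and Coa6 fell (-0.53, -0.43 and -0.81 with PLG+EACA), and Coa6 had the largest fall of the list with PLG+EACA+RNase (-1.14). The 2 that rose with PLG+EACA were Sco1, a copper chaperone (0.71, adjusted p = 0.00188), and Coa5 (0.35, adjusted p = 3.04e-04), named because they were so few. Coa5 was lower with PLG+EACA+RNase than with PLG+EACA (-0.30, adjusted p = 0.00956). For complex V, 3 of 4 fell with either preparation, Atpaf1 by the most (-0.53 and -0.59). Under median-of-ratios scaling, where 25.2% and 30.2% of all genes fell, 4 of the complex I list fell and 1 rose with PLG+EACA and 6 fell with PLG+EACA+RNase. On that scale 2 and 3 of the complex III list and 1 and 1 of the complex V list fell. Of the complex IV list 7 fell and 4 rose with PLG+EACA, and 9 fell and 1 rose with PLG+EACA+RNase.

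The pathways that feed and build the chain were given the same reading. Of 17 TCA cycle and pyruvate dehydrogenase genes outside complex II, 13 fell and 1 rose with PLG+EACA, and 14 fell and 1 rose with PLG+EACA+RNase (76.5% and 82.4% lower, against 53.4% and 48.4% of all genes). Under median-of-ratios scaling 3 fell and 4 rose with PLG+EACA, and 6 fell and 2 rose with PLG+EACA+RNase. The 3 subunits of NAD-dependent isocitrate dehydrogenase fell, Idh3a from 6.8 to 4.88 and 4.75 and Idh3g from 18.7 to 13.6 and 12.4. Fh1, fumarase, which works on the product of complex II, went from 10.1 to 6.62 and 6.04, with changes of -0.58 with PLG+EACA (adjusted p = 3.06e-05) and -0.70 with PLG+EACA+RNase (adjusted p = 7.86e-06). Cs, citrate synthase, was the gene that rose (0.16 and 0.16). Of 15 tested regulators of mitochondrial biogenesis, 11 fell and 1 rose with PLG+EACA, and 12 fell and 1 rose with PLG+EACA+RNase. The shares that fell were 73.3% and 80%, against 53.4% and 48.4% of all genes. Under median-of-ratios scaling 8 fell and 2 rose, and 10 fell and 1 rose. On that scale 25.2% and 30.2% of all genes fell. Ppargc1b, the coactivator PGC-1 beta, had an FPKM of 7.4, 8.0, 7.27 and 7.61 in the untreated libraries, 2.97, 2.88, 2.16 and 1.92 after PLG+EACA and 3.15, 3.75, 3.72 and 2.66 after PLG+EACA+RNase. The treated libraries were all below the untreated ones, with changes of -1.45 with PLG+EACA (adjusted p = 1.47e-06) and -1.09 with PLG+EACA+RNase (adjusted p = 1.32e-05). Polrmt, the RNA polymerase of mitochondria, fell from 6.91 to 3.75 and 3.54. Of the factors whose letters were searched in the promoters, Esrra, Yy1 and Nrf1 fell with PLG+EACA (-0.49, -0.45 and -0.27), Gabpa was at -0.15 (adjusted p = 0.0734) and its partner Gabpb1 rose (0.52, adjusted p = 3.24e-04).

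Of the 11 subunits encoded by mitochondrial DNA that were tested, 6 fell with PLG+EACA, a share of 54.5% near the 53.4% of all genes, and all 11 fell with PLG+EACA+RNase, against 48.4%. Under median-of-ratios scaling 10 fell with PLG+EACA+RNase, while with PLG+EACA the median change was -0.12 and 0 fell by limma (1 at an unadjusted p under 0.05). Between the preparations 6 were lower with PLG+EACA+RNase than with PLG+EACA (8 under median-of-ratios scaling), against 1 of the 88 nuclear members (13 under that scaling). mt-Nd1, a complex I subunit beside the ubiquinone site, had an FPKM of 608, 512, 603 and 490.3 in the untreated libraries, 326, 290.1, 324 and 438 after PLG+EACA and 241, 154, 186 and 225 after PLG+EACA+RNase. The 3 groups did not overlap and stepped down from untreated to PLG+EACA to PLG+EACA+RNase, with changes of -0.69 with PLG+EACA (adjusted p = 0.00153) and -1.47 with PLG+EACA+RNase (adjusted p = 6.55e-06). mt-Nd2 went from 239 ± 28.7 to 159 ± 21.8 and 84.5 ± 16 (mean ± SD, n = 4), and its difference between the preparations was -0.92 ± 0.14 (adjusted p = 0.00364). mt-Cytb, the mitochondrial subunit of complex III, was -0.49 between them (adjusted p = 0.0109). All mitochondrial mRNAs took 0.671% ± 0.0444 of reads in the untreated group, 0.559% ± 0.0655 after PLG+EACA and 0.436% ± 0.0353 after PLG+EACA+RNase. Among nuclear core subunits of complex I, the differences between the preparations were -0.12 for Ndufs1, -0.08 for Ndufs3 and -0.04 for Ndufs7. The 2 genomes' lists were compared by their counts alone, without a test of the difference.

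Gene overlap and gene copies bear on single members. Of the 96 members, 22 overlap another expressed gene and 14 have a copy elsewhere of at least 97% identity over at least 200 bases, and whether counting used the strand is not given in the sources used here. Among the 19 tested members with such an overlap, 16 fell after PLG+EACA and 18 after PLG+EACA+RNase. Among the 14 with a copy 13 and 13 fell, and among the 56 with neither 46 and 50 fell. Members that neither property touches thus also mostly fell on FPKM as deposited, where 53.4% and 48.4% of all genes fell. These counts were not made under median-of-ratios scaling.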

How the data were processed

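RNA-seq of total RNA from 12 macrophage libraries (4 per group) was analysed. Per the submitters' processing notes, the build was GRCm38.p6 and the tools were STAR 2.7.11a, featureCounts 2.0.6, cutadapt 4.5, DESeq2 1.40.2 and FastQC 0.12.1, with no role given. The authors deposited FPKM, 1 column per library, without further scaling between libraries. FPKM times gene length summed to the same total in each library. From FPKM, limma 3.58.1 (R 4.3.3) was fitted here to log2(FPKM + 0.5) as 1 model of 3 group means with a mean-variance trend, and p-values were adjusted over the 11165 genes tested. Fold changes on this scale understate those of low genes. Tested on simulated data for PLG+EACA against untreated (10952 genes), the fit recovered 12.5% of genes changed 1.25-fold, 70.8% at 1.5-fold and 93.9% at 2-fold. The simulation changed few genes, 48 or 49 tested at each fold, and gave all genes the same extra spread between libraries. In the data 53.4% of genes fell and 14.9% rose with PLG+EACA, so these shares do not give the recovery of the real fit. Named genes were, per comparison, the 5 largest non-overlapping changes in each direction, the 2 smallest p-values per role and related list, all complex II subunits and complex IV isoforms; others are named as examples chosen after their values were seen, and 1 member that the rule names is not reported here. The members and lists were chosen with earlier results of these data known. Coordinates are the deposited ones, equal to GENCODE M21 for all 96 members. Alternatives were other scalings, pseudocounts, filters, samples in the fit, the replicate number as a block, and leaving out each library.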

Additional observations from a re-analysis of the deposited data

Results flagged for a closer look

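Within 150 groups of 4 libraries (the FPKM of 39 named members and 11 sums or ratios), 6 had 1 library whose gap to the nearest of the others exceeded Dixon's critical share of the group's range for 4 values, and chance flags about 1 in 20. Atp5g1 with PLG+EACA was 8.66 in replicate 4 and 7.07 to 7.28 in the others. Ndufb1-ps in untreated cells was 11.4 in replicate 3 and 8.93 to 9.30 in the others. Uqcr10 in untreated cells was 102 in replicate 3 and 86.4 to 88.8 in the others. Uqcrc1 with PLG+EACA+RNase was 29.6 in replicate 3 and 33.5 to 34.1 in the others. The summed FPKM of complex I was 669 in PLG+EACA replicate 2 and 644 to 647 in the others, and 630.1 in PLG+EACA+RNase replicate 2 and 648 to 650.4 in the others.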

How the results depend on the processing

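Of the 74 and 80 members that fell, every one tested kept a negative sign in each alternative except the median-of-ratios scalings. Members lower numbered 67 to 74 with PLG+EACA and 72 to 80 with PLG+EACA+RNase under other pseudocounts, filters and variance models, 73 in each under scaling to protein-coding reads or to all reads but Gm26917, and 76 and 81 when only the 2 groups compared were fitted. Leaving out each library in turn gave 72 to 79 lower and 0 to 0 higher with PLG+EACA, 73 to 82 lower and 0 to 1 higher with PLG+EACA+RNase, and 1 to 3 higher and 1 to 2 lower between the preparations. Scaling by the median of ratios gave 3 higher and 10 lower with PLG+EACA, 36 lower with PLG+EACA+RNase, and 0 higher and 13 lower between the preparations. Over the tested genes alone, added after seeing the data as was the scaling without Gm26917, it gave 3 higher and 14 lower, 30 lower, and 1 higher and 3 lower; the cause was not tested. A mean FPKM of at least 5 left 0 higher with PLG+EACA+RNase, since Cox7a1 was no longer tested, and with no filter the 1 higher was Cox4i2, not Cox7a1. With only the 2 preparations fitted, 0 were higher and 0 lower between them. Same-numbered libraries correlated at -0.176 to 0.332 in their deviations (3 of 12 pairs over 0.1), and differently numbered ones at -0.336 to 0.118. The highest correlation of a library with another group was with its own number in 7 of 12 libraries. In 0 of 12 was its own number the best in both other groups. These values do not settle whether the numbers pair the samples. The reported fit did not use the numbers, and a fit with the replicate block was an alternative. With the replicate block 78 members were lower with PLG+EACA and 77 lower and 1 higher with PLG+EACA+RNase, and 2 were higher and 2 lower between the preparations. Under median-of-ratios scaling 53 of the 74 members that fell with PLG+EACA kept a negative sign, and 76 of the 80 with PLG+EACA+RNase. Signs were listed singly only for the genes named by the rule. Among these the sign turned for Atp5a1 (0.010), Atp5b (0.11), Sdhc (0.0063) and Tmem70 (0.0038) with PLG+EACA. Between the preparations it turned for Sdhd (-0.073) and Cox7a2l (-0.055). When the size factors came from the tested genes alone, 59 of those 74 members and 68 of those 80 kept a negative sign. On that scale the genes named by the rule whose sign turned were Atp5b and Sdhd. Atp5b turned in both comparisons with untreated cells (0.094 and 0.016), and Sdhd turned between the preparations (-0.015). Leaving out 1 library turned differences near 0. Cox7a1 with PLG+EACA ranged from -0.043 (omitting PLG+EACA replicate 2; -0.034 omitting untreated replicate 4) to 0.18. Between the preparations Sdhd ranged from -0.0022 (omitting PLG+EACA+RNase replicate 3) to 0.058 and Cox7a2l from -0.0025 (omitting PLG+EACA+RNase replicate 1) to 0.094. Depth limits the low members, Ndufaf4 and the 8 under the filter most.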
